A study of Rattus norvegicus with 12 samples.

Results

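The comparison described here is that of KA with PBS in rat hippocampus over both housings of the study, and it takes in all 12 of its 12 arrays, 6 from KA-treated and 6 from PBS-treated rats. The sample descriptions do not spell KA out. Since the series concerns seizures, it is read here as kainic acid, with phosphate-buffered saline (PBS) as its vehicle. Rats received either agent at postnatal day 20 (P20). Isolated rats were then kept in individual cages for 10 days, and enriched rats in large cages of 8. The descriptions give no duration for the enriched housing and no strain or sex, and no group had ordinary group housing. Each of the 4 groups (PBS_isolated, KA_isolated, PBS_enriched and KA_enriched) held 3 arrays, each from 1 pool of hippocampi of 3 to 4 animals. Litter and cage are not given, so p-values measure the spread between pools, and effects of the cage and of enrichment cannot be told apart.

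Kainic acid is an agonist of kainate and AMPA receptors, which are glutamate-gated ion channels. Given to a rat, it sets off prolonged seizures that start in the hippocampus. In the adult hippocampus such seizures kill pyramidal and hilar neurons and are followed by activation of microglia and astrocytes, whereas the hippocampus of the very young rat is known to lose few neurons. In the first hours immediate early genes such as Fos, Arc and Egr1 are transcribed at high rates and then return towards their resting level. The question asked of the 12 arrays was which genes stood higher or lower after KA whatever the housing, and which genes had all 6 KA arrays on the same side of all 6 PBS arrays.

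Signal was measured as array intensity in arbitrary units and compared as log2(signal + 17), so a log2 difference of dim genes is understated. The difference between KA and PBS was taken within each housing and averaged over both, and it was tested with limma with Benjamini-Hochberg adjustment over 9520 probe sets. Forebrain neuron genes were bright on every array, for example the synaptic protein gene Nrgn at 1672 to 2353 and the dentate granule cell gene Prox1 at 225 to 253. Of the other hippocampal cell type markers, Spink8 and Tdo2 stayed near 0, at 0.582 to 3.41 and 2.74 to 17.4. Of the markers of the striatum, Drd1 and Adora2a were dim at 32.2 to 54.6 and 10.0 to 29.5, and so were Drd2 and Tac1. Penk, Ppp1r1b and Rgs9 were brighter, at 169 to 241, 115 to 173 and 60.1 to 82.5. Ttr, a gene of the choroid plexus, lay between 87.2 and 683 on 11 arrays and at 2719 on PBS_isolated replicate 1. Pairs of arrays correlated at 0.9713 to 0.9889 within groups and 0.9748 to 0.99 across groups over the tested probe sets. KA_enriched replicate 3 had the lowest mean correlation with the others (0.977) and the highest log2 ratio of 3 prime to 5 prime beta-actin signal (0.856). That ratio, which rises as RNA degrades, averaged 0.560 in KA and 0.510 in PBS arrays, a difference of 0.0506 (exact permutation test within housings, two-sided p = 0.515). The same ratio for GAPDH averaged 0.1585 in KA arrays (range 0.1082 to 0.249) and 0.1192 in PBS arrays (0.095 to 0.1496), with a two-sided p of 0.12 in the same exact test. The part of RNA quality in the differences was not tested beyond leaving out arrays and using the beta-actin ratio as a covariate.

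Few genes stood apart after KA in both housings alike. Of 9520 probe sets 1 passed the threshold of 0.05 (0.0105%), that of Anp32a, and the next lowest adjusted p was 0.996. At an unadjusted p under 0.05 there were 410 (4.31%), 200 of them higher and 210 lower after KA. The typical 95% interval of the mean difference reached 0.151 to either side on the log2 scale. Only 4 probe sets differed by a log2 of 0.5 or more: those of Anp32a (-0.84), the complement component C3 (0.67), the clock gene Per1 (0.60) and Cd74 (0.59), which chaperones MHC class II molecules. Cd74 had 1.448 in isolated and -0.275 in enriched rats, so its sign was not shared, and C3 had 1.255 and 0.078. In simulated data, 50 probe sets each were shifted by 0.25, 0.5, 1 and 2 in this comparison, and 175 were called in all. Called were 40% of the 50 shifted by 0.25 and 92% of the 50 shifted by 0.5. With 175 calls the adjusted threshold is more lenient than with the 1 call in the real data. These shares are therefore too high for the real data, where shared differences of 0.5 could be missed as well as smaller ones. A missed threshold does not show that values were alike.

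The KA differences of the 2 housings were not alike across probe sets. These differences share no arrays. Their correlation over the 9520 probe sets was -0.042 (Pearson) and -0.041 (Spearman), as a description, since probe sets are not independent. In isolated rats 410 probe sets had an unadjusted p under 0.05 (4.31%), and 170 of these (41.5%) had the same sign in enriched rats. In enriched rats 474 did (4.98%), of which 227 (47.9%) had the same sign in isolated rats. Over all probe sets the signs matched for 4606 (48.4%). After adjustment 1 probe set passed in isolated rats (0.0105%), Anp32a again, and 0 passed in enriched rats (0.0%) by the same limma test. Fitted on the 6 isolated arrays alone, limma called 5, Anp32a lower and C3, S100a4, Rnaset2 and an unnamed probe set higher; S100a4 and Rnaset2 were named after their values were seen. The interaction, which is the KA difference in enriched minus that in isolated rats, gave 0 past the threshold (0.0%) and 473 at an unadjusted p under 0.05 (4.97%).

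**Figure D1:**
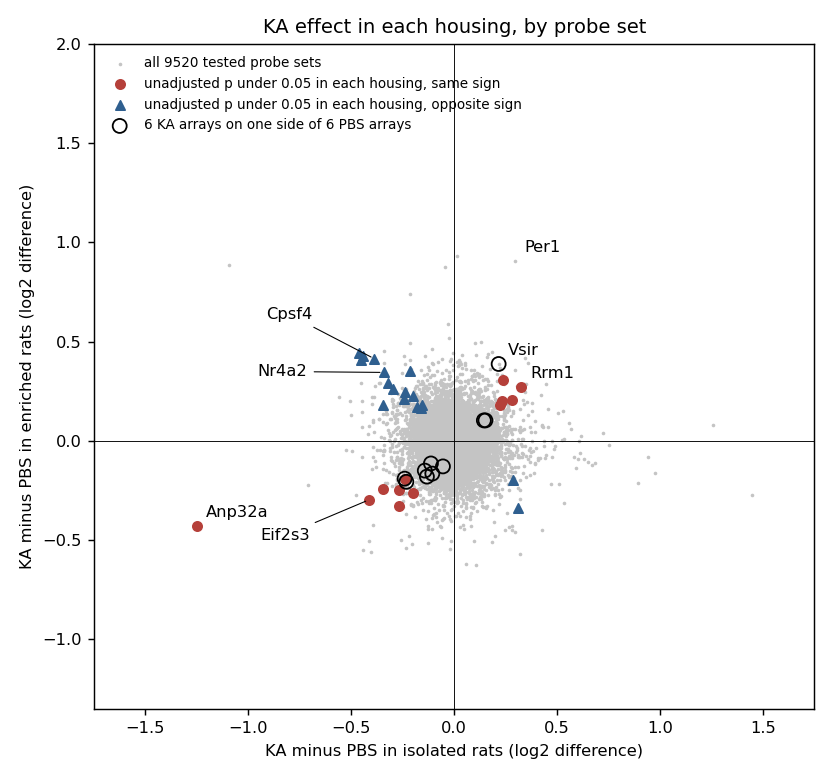
The log2 difference between KA and PBS in isolated rats (x axis) is plotted against that in enriched rats (y axis) for the 9520 tested probe sets (grey). Red points (12) and blue triangles (17) had an unadjusted limma p under 0.05 in each housing with the same or the opposite sign, and open circles mark the 10 whose 6 KA arrays lay on one side of the 6 PBS arrays. The grey cloud is round, and Anp32a stands alone at the lower left.

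Anp32a encodes a small acidic nuclear protein that inhibits protein phosphatase 2A and binds histones. In isolated rats its signal was 385, 331 and 459 after PBS and 167, 162 and 132 after KA. In enriched rats it was 127, 132 and 159 after PBS and 116, 83.7 and 98.4 after KA. All 3 KA arrays lay below all 3 PBS arrays in each housing, but the PBS_enriched arrays overlapped the KA_isolated arrays, so the 6 KA and 6 PBS arrays were not apart. Anp32a fell after KA by a mean log2 of 0.841 (SE 0.0948, 95% interval -1.04 to -0.64, limma adjusted p = 0.00647), or 1.79-fold, and was lower in 6 of 6 KA arrays than in the PBS arrays of the same housing. The difference was -1.25 in isolated rats (SE 0.134, limma adjusted p = 0.00361) and -0.43 in enriched rats (SE 0.134, unadjusted p = 0.0068, adjusted p = 0.932). The interaction was 0.82 (95% interval 0.41 to 1.23), with an unadjusted p of 0.000803 and an adjusted p of 0.765 by limma, so a difference between housings did not pass. The call was lost in a model without the interaction term (limma adjusted p = 0.347) and when dim probe sets were tested too (0.0553). The gene had 1 probe set on the array, so no other probe set could be set beside it.

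Besides Anp32a, 11 probe sets had an unadjusted p under 0.05 in each housing with the same sign, which makes 12 (0.126%), 5 higher and 7 lower after KA. A like number, 17 (0.179%), met the same condition with opposite signs. None of the 11 passed the threshold in the mean of both housings (limma adjusted p = 0.996 each), and 2 of the 12 have no gene name here. The count of 12 rested on few arrays: it was 6 without PBS_enriched replicate 1, 20 without PBS_enriched replicate 2, 21 without PBS_isolated replicate 2 and 25 without KA_enriched replicate 3. The opposite-sign counts in these 4 settings were 22, 11, 18 and 45, so either count could be the larger one. With the beta-actin ratio as a covariate 22 had the same and 27 the opposite sign, and with dim probe sets included 28 and 39.

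By role, 3 of the named genes among the 12 act on nucleotides or nucleic acids. Rrm1 encodes the large subunit of ribonucleotide reductase, which makes deoxyribonucleotides. In isolated rats the signal was 51.1, 50 and 35.8 after PBS and 74.8, 59.7 and 50.3 after KA, and in enriched rats it was 49.0, 44.0 and 54.7 after PBS and 64.2, 60.7 and 63.1 after KA. KA arrays were the higher ones in each housing, with an overlap in isolated rats, by a mean log2 of 0.30 (SE 0.0853, unadjusted p = 0.00397 by limma). Rnaseh2a, the catalytic subunit of ribonuclease H2, which removes RNA from RNA-DNA hybrids, was lower by a log2 of -0.23 (SE 0.0628), with KA arrays at 71.7 to 102 and PBS arrays at 95 to 121. Ascc1, a subunit of a complex that takes part in DNA alkylation repair and transcription, was lower as well (log2 -0.29, SE 0.0774).

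RNA-binding and translation genes were represented by Ybx3 and Eif2s3. Ybx3, a cold shock domain protein that binds mRNA, had 140, 151 and 163 as its lowest, median and highest signal in KA arrays and 113, 124 and 142 in PBS arrays, with a narrow overlap. Its log2 difference was 0.24 (SE 0.0592, unadjusted p = 0.0012 by limma). Eif2s3 encodes the gamma subunit of the initiation factor eIF2, which brings the initiator tRNA to the ribosome. Isolated arrays read 137, 167 and 158 after PBS and 101, 127 and 107 after KA, and enriched arrays 173, 122 and 147 after PBS and 124, 100 and 124 after KA. The KA arrays were lower in isolated rats without overlap and lower in enriched rats with overlap, by a mean log2 of -0.36 (SE 0.0871, unadjusted p = 0.00129 by limma).

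The other 4 named genes have separate roles. Kif13a, a kinesin motor, had a log2 difference of -0.26 (SE 0.0754). Optn, the autophagy receptor optineurin, had -0.30 (SE 0.0867), while its other tested probe set had -0.14 over both housings and 0.015 in isolated rats. Kctd6, an adaptor of the cullin-3 ubiquitin ligase, had 0.20 (SE 0.0537), and Vmac, a coiled-coil protein of vimentin filaments, had 0.22 (SE 0.0644). For Kctd6 and Vmac the 3 KA arrays lay above the 3 PBS arrays in each housing.

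**Figure D2:**
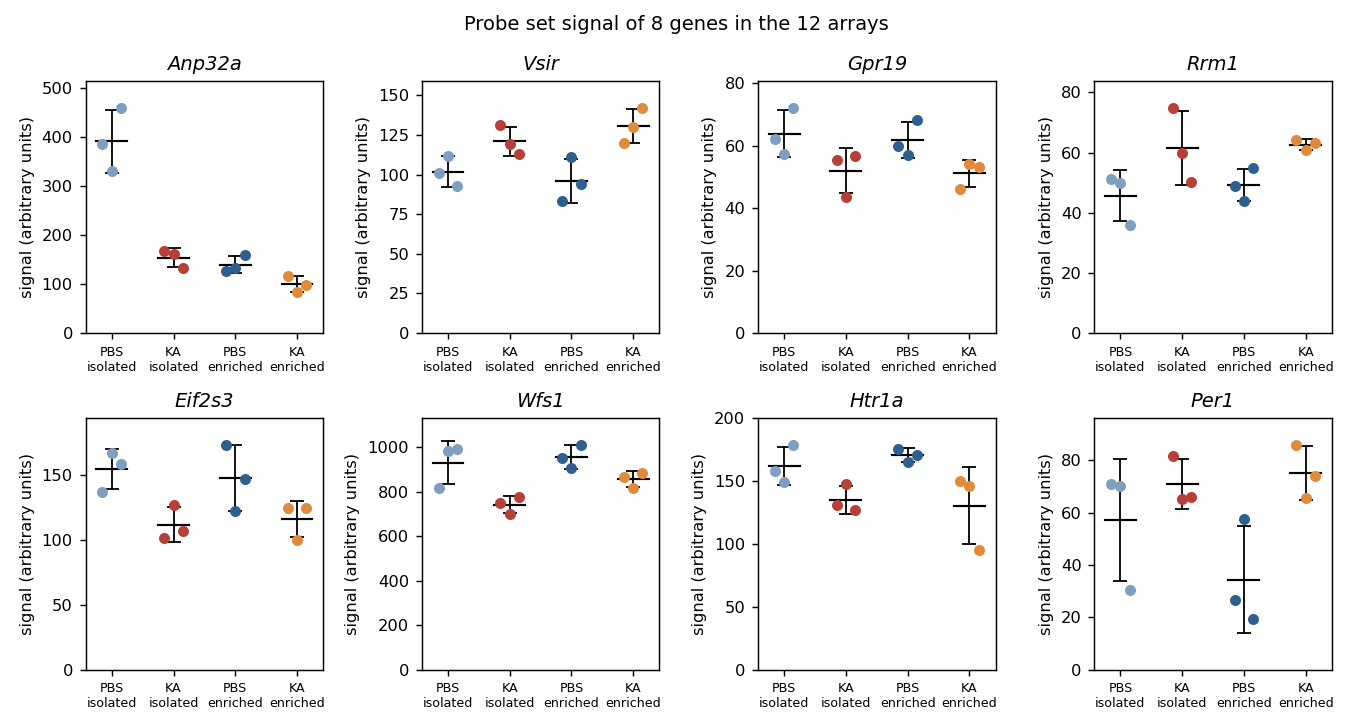
Probe set signal (y axis, arbitrary units from 0) of 8 genes in the 12 arrays, grouped by treatment and housing (x axis). Points are arrays, the horizontal line is the mean of the 3 arrays of a group and the bars are 1 SD. The Anp32a signal of 331 to 459 in PBS_isolated stands above all other arrays, and Vsir and Gpr19 show the narrow gap between their 6 KA and 6 PBS arrays.

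In 10 probe sets (0.105%) the 6 KA arrays lay on one side of the 6 PBS arrays, above them in 3 (0.0315%) and below them in 7 (0.0735%). Their mean log2 differences were small, from 0.092 to 0.302 in size, with unadjusted limma p-values between 0.000976 and 0.0663, and 0 passed after adjustment. Of the 10, 9 had an unadjusted p under 0.05 in the mean of both housings. Only 1 of them, a lower probe set without a gene name, was also among the 12 of the same sign with an unadjusted p under 0.05 in each housing.

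Vsir and Prdx6 were the named genes with higher signal. Vsir encodes VISTA, an inhibitory immune receptor found on myeloid cells, microglia among them. Its lowest, median and highest signal was 113, 125 and 142 in KA arrays and 83.3, 97.8 and 112 in PBS arrays, a gap of 1.1 units between the nearest arrays. The log2 difference was 0.22 in isolated and 0.39 in enriched rats, with a mean of 0.30 (SE 0.0714, 95% interval 0.15 to 0.46, unadjusted p = 0.000976 by limma). The microglial marker list, as the mean centred log2 signal of its genes, scored 0.301 in PBS_enriched replicate 2 and 0.298 in KA_enriched replicate 3, where Vsir had 111 and 142. In the other 4 enriched arrays the list scored -0.333 to -0.122, while Vsir had 83.3 and 94.2 after PBS and 120 and 130 after KA. In isolated rats both were higher after KA. There the list scored -0.253 to -0.175 after PBS and 0.216 to 0.417 after KA, and Vsir had 92.5 to 112 and 113 to 131. Whether Vsir follows the microglial genes was not tested. Prdx6, an antioxidant enzyme that reduces lipid peroxides and is rich in astrocytes, had 619, 626 and 670 in KA arrays and 558, 576 and 602 in PBS arrays. Its nearest KA and PBS arrays were 16.7 units apart, and its mean log2 difference was 0.13 (SE 0.0466, unadjusted p = 0.0171 by limma).

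Of the 7 with lower signal, 6 had a gene name. Gpr19, an orphan receptor of the brain, had 43.7, 53.7 and 56.8 in KA arrays and 57.1, 61.0 and 72.1 in PBS arrays, with a log2 difference of -0.22 (SE 0.0701) and a gap of 0.323 units. Rbfox2, a splicing factor active in neurons, had -0.16 (SE 0.0523) and a gap of 0.684 units. Sar1a, the GTPase that starts COPII vesicles at the endoplasmic reticulum, had -0.14 (SE 0.0546), but its other tested and brighter probe set had 0.030. Zdhhc17, a palmitoyltransferase that modifies synaptic proteins, had -0.11 (SE 0.0486). Fam114a2 (-0.15) and C5h1orf174 (-0.092) completed the named genes.

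Which probe sets were separated changed with the scaling of the arrays. When arrays were set to equal medians, 6 probe sets were separated, and 2 of the 10 (Prdx6 and the lower one without a gene name) were among them. After quantile normalization 13 were separated, 5 of which were among the 10: Vsir, Prdx6, Sar1a, Fam114a2 and the same unnamed one. Under both of these scalings the serotonin receptor gene Htr1a joined the lower ones and Pofut2 the higher ones. Within each housing taken alone, 35 probe sets (0.368%) had their 3 KA arrays on the same side of their 3 PBS arrays in both, 12 higher and 23 lower, and 47 (0.494%) had them on opposite sides.

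**Figure D3:**
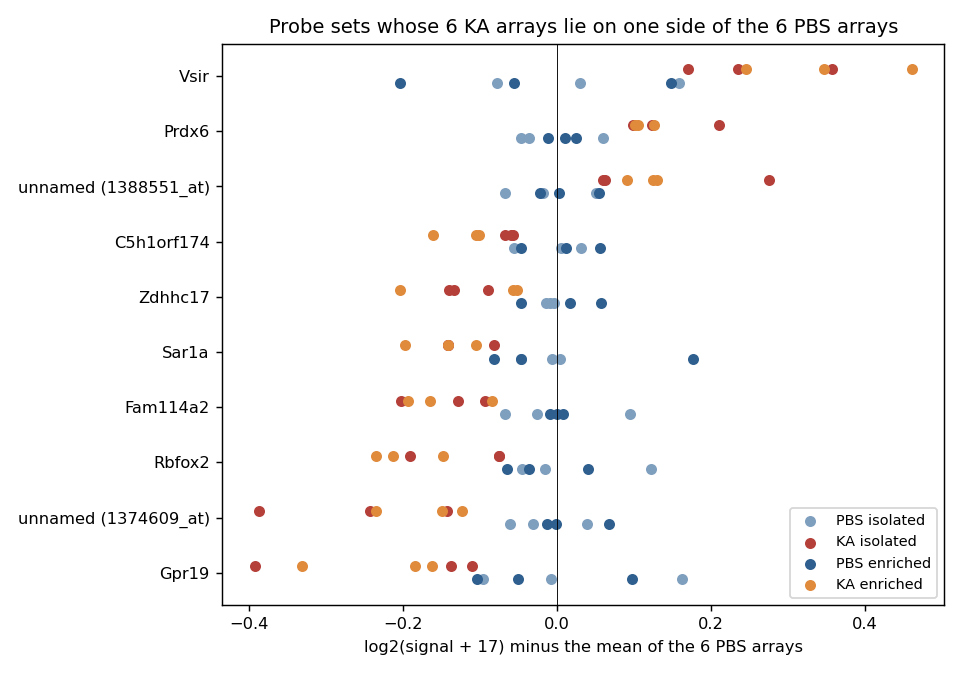
The 10 probe sets whose 6 KA arrays lay on one side of the 6 PBS arrays (rows), with each array's log2(signal + 17) minus the mean of the 6 PBS arrays on the x axis. Blue points are PBS and red and orange points KA arrays. The nearest KA and PBS arrays almost touch in most rows, whereas Prdx6 and the lower unnamed probe set leave a visible gap.

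Among the probe sets with the smallest unadjusted p that did not pass (limma adjusted p = 0.996 each), several had most of their difference in 1 housing. Tpgs1, a subunit of the tubulin polyglutamylase complex, had a log2 difference of -0.21 in isolated and -0.52 in enriched rats. Adissp had -0.53 and -0.046, Mllt10, a chromatin protein that works with the histone methyltransferase DOT1L, 0.16 and 0.42, and Plxnb2, a semaphorin receptor, 0.19 and 0.45. Smg5, a factor of nonsense-mediated mRNA decay, had -0.18 and -0.31, and Klhl13, another cullin-3 adaptor, 0.22 and 0.37. No test of these differences between housings passed, with interaction adjusted p-values of 0.91 or above by limma for Adissp, Tpgs1, Mllt10, Plxnb2, Smg5 and Klhl13.

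Among the 34 gene lists the lowest medians were those of the monoamine, acetylcholine and histamine receptors and of the pyramidal neuron markers. In bulk tissue fewer cells of a type and less RNA per cell cannot be told apart. Wfs1, an endoplasmic reticulum protein that marks CA1 pyramidal neurons, had a signal of 817, 981 and 991 after PBS and 748, 700 and 777 after KA in isolated rats, and of 950, 905 and 1010 after PBS and 867, 814 and 885 after KA in enriched rats. The KA arrays were below the PBS arrays in each housing, although the lowest PBS_isolated array fell within the KA_enriched range. The mean log2 difference was -0.24 (SE 0.0615, 95% interval -0.37 to -0.10, unadjusted p = 0.00206 by limma). The other tested probe set of Wfs1 had a mean of -0.167 (unadjusted p = 0.0699 by limma), from -0.276 in isolated and -0.058 in enriched rats. The pyramidal neuron list had 9 tested genes, 7 lower and 2 higher, with a median of -0.061 against -0.001 over all 6923 tested genes. In both housings 3 of the 9 were lower and 1 higher, so 44.4% shared their sign, against 47.9% of all tested genes. Only Wfs1 of the 9 had an unadjusted p under 0.05.

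Of 14 tested receptor genes for monoamines, acetylcholine and histamine, 12 were lower and 2 higher, with a median log2 difference of -0.077 and 2 at an unadjusted p under 0.05, both serotonin receptors. Over all 6923 tested genes 3483 were lower, and 4.32% had an unadjusted p under 0.05. The median of the 14 was -0.15 in isolated and -0.017 in enriched rats, where 7 of them were higher. In both housings 4 were lower and 2 higher, so 42.9% shared their sign, against 47.9% of all tested genes. Htr1a, the inhibitory serotonin receptor of pyramidal and granule cells, had 158, 149 and 179 after PBS and 131, 148 and 127 after KA in isolated rats. In enriched rats it had 176, 165 and 171 after PBS and 150, 146 and 95.1 after KA. The KA arrays were below the PBS arrays in each housing, with KA_enriched replicate 3 the lowest, and the mean log2 difference was -0.30 (SE 0.0926, unadjusted p = 0.00627 by limma). Htr5b had -0.45 in isolated and -0.082 in enriched rats. The histamine autoreceptor gene Hrh3 had -0.35 and 0.18, with an interaction of 0.53 (unadjusted p = 0.000274, limma adjusted p = 0.758), while its other tested probe set had 0.003 and 0.15.

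Among 9 tested genes of the GABA receptor list, not all of them receptor subunits, 6 were lower and 3 higher after KA, with a median of -0.028. The mean score of the list, which averages the centred log2 signal of its genes, was -0.062 to 0.014 in KA and 0.006 to 0.051 in PBS arrays, so the groups overlapped by a narrow margin. Gabra5, the alpha-5 subunit that carries tonic inhibition in the hippocampus, was lower by a log2 of -0.22 (SE 0.0791, unadjusted p = 0.0144 by limma), by about the same amount in isolated (-0.23) and enriched rats (-0.21). Gabrg1 had -0.26 (unadjusted p = 0.0462) and Gabra4 -0.17 (unadjusted p = 0.0666), both by limma. Without KA_enriched replicate 3, the array with the highest beta-actin ratio, Gabrg1 had -0.15. Gabbr2, a subunit of the metabotropic GABA-B receptor, had 0.12, and 0.064 without the same array.

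The receptors that KA itself binds gave small mean differences over both housings. Of 10 tested ionotropic glutamate receptor genes, which include NMDA receptor genes, 6 were lower and 4 higher, with a median of -0.029. Of the tested kainate and AMPA receptor genes, Grik2, Grik4 and Grik5 were higher and Gria1, Gria2 (-0.046) and Gria3 (-0.052) lower. Grik4, a high-affinity kainate receptor subunit of CA3 and dentate neurons, had 70.5, 91.7 and 107 as its lowest, median and highest signal in KA arrays and 65.4, 72.2 and 89.1 in PBS arrays. The groups overlapped, and the log2 difference was 0.083 in isolated and 0.36 in enriched rats, with a mean of 0.22 (SE 0.0722, unadjusted p = 0.00925 by limma). Grik5 had 0.081 (SE 0.102) and Grik2 0.008 (SE 0.0736). Grik1 and Grik3 were too dim to be tested, with Grik3 at 3.99 to 21.1 on all arrays. The AMPA receptor subunit gene Gria1 had 0.28 in isolated and -0.448 in enriched rats, with a mean of -0.084 (SE 0.154). Of the AMPA and NMDA receptor genes none had an unadjusted limma p under 0.05 in the mean of both housings. Grin2a was the farthest from 0 in that mean, at -0.25. That value was -0.11 without KA_enriched replicate 3, and the other tested probe set of Grin2a had -0.045.

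Immediate early genes differed little between KA and PBS in the mean of both housings. Of 18 tested genes 13 were lower and 5 higher, with a median of -0.051, and 1 of 18 (5.56%) had an unadjusted p under 0.05, close to the 4.32% of all tested genes. The median was -0.098 in isolated and 0.009 in enriched rats, where 10 of 18 were higher. Signs were shared by 38.9%, against 47.9% of all tested genes. In isolated rats the list's mean score was -0.135 to -0.118 after KA and -0.115 to 0.014 after PBS. Arc had a mean log2 difference of -0.11 (SE 0.0934), from -0.35 in isolated and 0.14 in enriched rats, and Egr1 had -0.074 (SE 0.0647). Both Fos probe sets were below the filter. The 1 gene was Per1, a clock gene that is also induced by activity and glucocorticoids. Signal in isolated rats was 70.9, 70.1 and 30.4 after PBS and 81.7, 65.0 and 66.0 after KA. In enriched rats the signal was 26.5, 57.5 and 19.2 after PBS and 85.9, 65.4 and 74 after KA. All KA arrays were at 65.0 or above, 4 of the 6 PBS arrays were below that, and the other 2, at 70.1 and 70.9, overlapped them. The mean log2 difference was 0.60 (SE 0.18, unadjusted p = 0.00532 by limma). Bmal1, the activator of the clock, had -0.21 (unadjusted p = 0.0155 in the limma fit). The hour at which tissue was taken is not given for any array.

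Microglial genes were higher on average, but through the isolated rats. All 16 tested genes of the microglia, macrophage and complement list had a mean log2 difference above 0, from 0.053 to 0.666 with a median of 0.226, and 5 of 16 (31.2%) had an unadjusted p under 0.05, against 4.32% of all tested genes. After adjustment 0 passed by limma. The median was 0.505 in isolated and -0.050 in enriched rats, and 7 of the 16 were higher in both. The mean score of the list was -0.246, -0.253 and -0.175 after PBS and 0.276, 0.417 and 0.216 after KA in isolated rats. Among enriched arrays it was -0.203, 0.301 and -0.176 after PBS and -0.122, -0.333 and 0.298 after KA. Isolated KA arrays were all high and isolated PBS arrays all low, while among enriched arrays 1 of each treatment was high, and KA and PBS overlapped. Without PBS_enriched replicate 2 the list's median was 0.289, and without KA_enriched replicate 3 it was 0.154.

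Csf1r, the receptor that keeps microglia alive, showed the same picture, with 284 to 353 in KA_isolated against 201 to 209 in PBS_isolated, and 198, 247 and 285 in KA_enriched against 182, 197 and 316 in PBS_enriched. Its mean log2 difference was 0.33 (SE 0.12, unadjusted p = 0.0179 by limma). Laptm5, a lysosomal protein of leukocytes, had 0.49 in isolated and -0.039 in enriched rats, and the purine receptor gene P2ry12 had 0.53 and 0.006 (0.54 and -0.32 by its other tested probe set). C3, singled out after its values were seen, had 1.25 and 0.078. Aif1 differed from these, with 0.029 in isolated and 0.304 in enriched rats by the probe set used in the list. Its other tested probe set had 0.633 and -0.093, so the probe sets of Aif1 disagreed. All 9 tested genes of the reactive astrocyte list were higher in the mean, with a median of 0.142, made of 0.248 in isolated and -0.017 in enriched rats, and 4 of 9 were higher in both. Gfap, the intermediate filament of astrocytes, had 0.19 (SE 0.0941, unadjusted p = 0.0611 by limma), from 0.32 and 0.068. Hspb1 (0.27) and S100a10 (0.14) had an unadjusted p under 0.05. The 5 tested MHC and interferon genes had medians of 0.139 in isolated and 0.110 in enriched rats, but its genes differed. Irf1 (0.14 and 0.23) and Ifitm3 (0.11 and 0.12) had like values in both housings, whereas the class II gene RT1-Da had 0.90 and -0.21 and the class I light chain gene B2m, the 1 with an unadjusted p under 0.05, had 0.31 and 0.008.

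**Figure D4:**
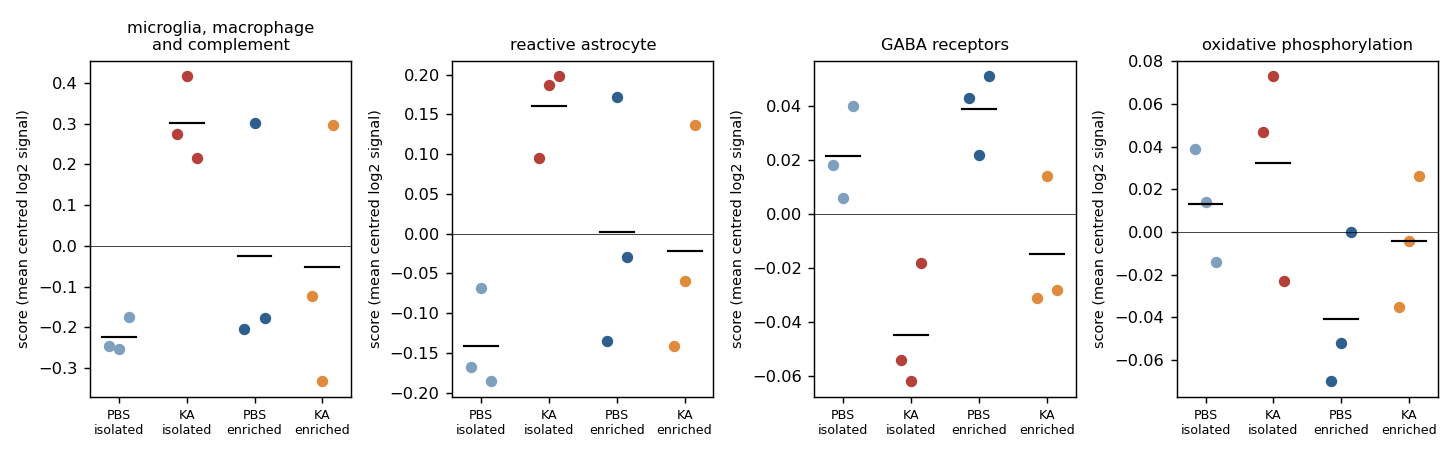
Mean score of 4 gene lists (y axis, mean of the centred log2 signals of the list's tested genes) in each array, by group (x axis), with a line at the group mean; the y axes differ between panels. Microglial scores reach 0.301 and 0.298 in 1 PBS_enriched and 1 KA_enriched array, and GABA receptor scores are at or below 0.014 in KA and at or above 0.006 in PBS arrays.

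Genes of the mitochondrial respiratory chain and ATP synthase differed little but mostly with the same sign in both housings. Of 22 tested, 14 were higher in both and 5 lower in both (86.4% of the same sign, against 47.9% of all tested genes). Their median log2 difference was 0.044, below the typical 95% interval of a gene, and 1 had an unadjusted p under 0.05: Cox6c, a subunit of cytochrome oxidase, at 0.14 (SE 0.0611, unadjusted p = 0.0436 by limma). The mean score overlapped, at -0.035 to 0.073 in KA and -0.070 to 0.039 in PBS arrays. Apoptosis genes also shared their sign in 10 of 12 (83.3%), 6 higher and 4 lower, but 0 of 12 had an unadjusted p under 0.05.

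The metabotropic glutamate receptor list (6 tested genes, among them the scaffold gene Homer3) had a median of 0.115, with 4 genes higher and 2 lower and 0 at an unadjusted p under 0.05 by limma. Its median was 0.059 in isolated and -0.026 in enriched rats. Grm2, a presynaptic receptor of mossy fibres, had 0.17 (SE 0.111), and Grm7 had -0.13 (SE 0.0978). Several lists of synaptic, channel and myelin genes lay near the median of all genes. Synaptic vesicle genes (22 tested) had a median of -0.003, postsynaptic density genes (20) -0.026, potassium channels (20) -0.027, and myelin genes (11) 0.014. Mbp, the myelin basic protein gene, had 0.042 (SE 0.0592). The interneuron list had 10 tested genes, 7 lower and 3 higher, with Npy, a peptide that rises after seizures in the adult, at -0.043 (SE 0.0614). Bdnf, the neurotrophin gene induced by seizures, had 0.014 (SE 0.0623). Among dense-core vesicle genes Chga, chromogranin A, had -0.085 in isolated and -0.41 in enriched rats (mean unadjusted p = 0.00498 by limma). Other such genes differed less in the mean: Chgb 0.036, Scg2 0.059, Scg5 0.032, Scg3 -0.036 and Vgf -0.098. The list of neuropeptides, granins and their receptors (19 tested) had 10 genes higher and 9 lower, with a median of 0.001. Svop, a synaptic vesicle protein, had 0.10 in isolated and -0.62 in enriched rats. Neurod1, a transcription factor of newborn granule neurons, was higher by 0.23 (SE 0.0916, unadjusted p = 0.0256 in the limma fit). Its list, immature neuron and neurogenesis, had 8 tested genes, 5 higher and 3 lower, with a median of only 0.023. Timp3, an inhibitor of matrix proteases, was higher by 0.17 (SE 0.0646), but its other tested probe set had -0.14. None of the 34 lists, with 417 tested genes, held a gene that passed after adjustment by limma, while of all 6923 tested genes 150 were higher and 149 lower at an unadjusted p under 0.05 (4.32%).

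**Figure D5:**
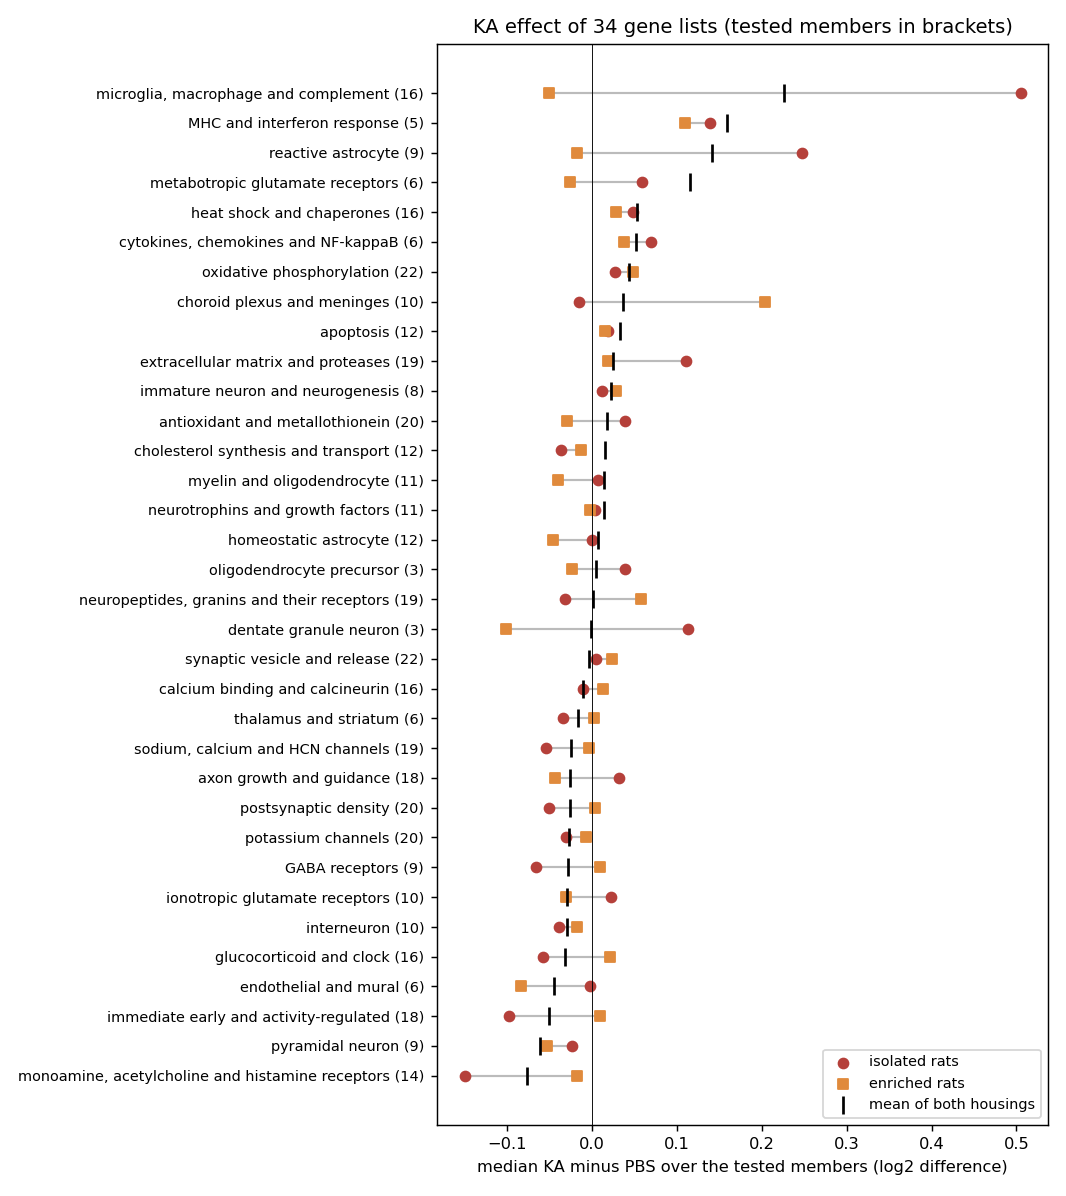
Median log2 difference between KA and PBS (x axis) of the tested genes of 34 lists (rows, number of tested genes in brackets) in isolated rats (red), enriched rats (orange) and the mean of both (black bar). The microglial list has the widest distance between housings (0.505 and -0.050), and most medians of the mean lie within 0.1 of 0.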

How the data were processed

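Total RNA of 12 pools was hybridised to single-colour oligonucleotide arrays. The deposited values are probe set signals, an array intensity on a linear scale. How probes were summarised into these signals: not given in the sources used here. Trimmed by 2% at either end, each array's mean was 150 in the deposited intensity, and array medians ran from 70.06 to 74.1, so no further scaling was applied. The number of arrays limits the precision.

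From 15923 probe sets, 57 controls were left out. Values became log2(signal + 17), where 17 is about the 20th percentile. The 60% with the highest mean over all arrays (9520) were tested. Gene names came from the platform annotation: 12783 probe sets had 1 symbol, 312 several and 2771 none; 12748 were matched by Entrez ID to RefSeq genes. Where a gene had several probe sets, lists used the brightest.

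One model with a mean for each of the 4 groups was fitted with limma 3.58.1 in R 4.3.3 (lmFit, eBayes; 13.1 degrees of freedom). Contrasts were KA minus PBS in each housing, their mean, and their difference. P-values are two-sided. Named genes were those past the threshold, the separated ones, the 6 higher and 6 lower with the smallest p, those with an unadjusted p under 0.05 in each housing (4 of those with opposite signs), up to 4 per list, and a fixed set of glial, activity and kainate receptor genes; genes named outside this rule are list members, or are said to be chosen later. Members, lists and rules were chosen with earlier results of these data known. The fit was tested on simulated data: of 175 probe sets called for the KA effect over both housings among 9520, 5.71% were false. The alternatives were other offsets, filters and scalings, an additive model, array weights, the beta-actin ratio as covariate, a replicate block, each housing alone, and leaving out each array.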

Additional observations from a re-analysis of the deposited data

Results flagged for a closer look

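Both of the following genes had all 3 KA arrays below all 3 PBS arrays in isolated rats and all 3 above in enriched rats, and in neither did the difference between housings pass after adjustment. Cpsf4, a subunit of the complex that cleaves and polyadenylates pre-mRNA, had a signal of 111, 114 and 91.6 after PBS and 82.3, 81.4 and 66.5 after KA in isolated rats, and of 86.6, 70.1 and 86.4 after PBS and 105, 104 and 132 after KA in enriched rats. The interaction (enriched minus isolated KA difference) was 0.801 on the log2 scale (unadjusted p = 0.000257, limma adjusted p = 0.758). Nr4a2, an orphan nuclear receptor and activity-regulated transcription factor, had 52.6, 68.5 and 51.9 after PBS and 47.1, 33.6 and 44.9 after KA in isolated rats, and 48.4, 51.6 and 49.4 after PBS and 62.0, 74.8 and 67.1 after KA in enriched rats. Its interaction was 0.688 (unadjusted p = 0.000554, limma adjusted p = 0.758). The other tested probe set of Nr4a2, which is brighter, had a KA difference of -0.089 in isolated and -0.010 in enriched rats.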

How the results depend on the processing

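The count for the KA effect over both housings was 1 (Anp32a) in each setting except 0 in the additive model and 0 with no filter on dim probe sets. With the replicate block it was 1, and the isolated, enriched and interaction counts were 1, 0 and 0; same-numbered arrays did not deviate together (2 of 18 pairs correlated above 0.1), so the numbers were not taken as pairs. Fitted on the 6 isolated arrays alone, 5 probe sets passed instead of 1: Anp32a lower, and C3, S100a4, Rnaset2 and an unnamed probe set higher, with -0.16 to 0.078 for these 4 in enriched rats. The same-sign count of 12 became 22 with the actin covariate and 28 with no filter, where opposite-sign counts were 27 and 39. Leaving out 1 array gave 6 (without PBS_enriched replicate 1) to 25 (without KA_enriched replicate 3), with 20 without PBS_enriched replicate 2 and 21 without PBS_isolated replicate 2; the opposite-sign counts were 22, 45, 11 and 18. The count of separated probe sets was 6 with equal medians and 17 with no filter, and 17 to 40 when 1 array was left out, where fewer arrays have to lie apart. Of 3537 alternative values of 163 genes, 3535 kept their side of the threshold, the 2 others being Anp32a, and 15 genes without a call changed sign in some setting. The causes were not tested.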

Other observations

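Among the 35 probe sets whose 3 KA arrays lay on the same side of the 3 PBS arrays in each housing, several genes are not described above; all were chosen after their values were seen, and 0 of the 35 but Anp32a passed after adjustment by limma. S1pr5, a sphingosine-1-phosphate receptor of oligodendrocytes, was higher after KA by a mean log2 of 0.23 (unadjusted p = 0.00912 by limma), and Skil, a repressor of TGF-beta signalling, by 0.13. Lower were Gpx7, a peroxidase of the endoplasmic reticulum (-0.18), Zmynd8, a chromatin reader (-0.18), Daam1, a formin that assembles actin filaments (-0.18), and Slc2a13, a myo-inositol transporter (-0.11). Jun, a subunit of the AP-1 transcription factor, was among the lower ones with a mean of -0.17 (unadjusted p = 0.0064 by limma), while its brightest probe set, used in the list of immediate early genes, had 0.074 with 0.15 in isolated and -0.004 in enriched rats, so its probe sets disagreed in sign. The choroid plexus and meninges list (10 tested genes) had medians of -0.015 in isolated and 0.204 in enriched rats, and its score ran from -0.437 in PBS_enriched replicate 1 to 0.640 in PBS_isolated replicate 1, both of them PBS arrays.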
